A study of Mus musculus with 12 samples.

Results

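The mitochondrial respiratory chain and ATP synthase were examined through the nuclear genes of their subunits in mouse duodenum. The genes were those whose symbol begins with Nduf followed by a, b, c, s or v and a number, the 4 genes Sdha to Sdhd, and those whose symbol begins with Uqcr, with Cox followed by a number from 4 to 8, or with Atp5. Only array features paired with exactly 1 gene symbol were taken, at the feature with the highest mean where a gene had several. This gave 81 genes of the 19938 tested, with 35 assigned to complex I, 4 to complex II, 8 to complex III, 17 to complex IV and 17 to complex V.

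Duodenal segments came from mice of strain 129 in 4 groups, each of 3 arrays. These were Onecut2 knockout at postnatal day 30, Onecut2 knockout at postnatal day 15, wild type at day 30 and wild type at day 15. The RNA on an array came from a pool of 5 to 8 mice of mixed sex, so p-values measure the spread between pools and not that between single mice. The animals were untreated, and the labels do not say how the gene was ablated or in which cells. Values are log2 expression values after quantile normalization, so a value is comparable between arrays for 1 gene and not between genes. Where genes are called bright or dim, this ranks array signal only and not amounts of RNA. Onecut2 itself ran from 8.09 to 8.25 on the knockout arrays and from 9.50 to 9.69 on the wild type arrays.

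Complexes I to IV pass electrons from NADH and succinate to oxygen, and complexes I, III and IV pump protons across the inner mitochondrial membrane. Complex V, the ATP synthase, uses that gradient to make ATP. Most subunits are encoded in the nucleus, a small set is encoded in mitochondrial DNA, and the enterocytes that line the duodenum use ATP from this chain to drive nutrient uptake. Between day 15 and day 30 a mouse pup is weaned, and its intestine turns to a solid diet.

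By array signal the genes were mostly bright, with 75 of 81 above the median gene (mean log2 value 7.56) and 46 above 10. The mean log2 value over the 81 genes was 10.36, 10.34 and 10.27 on the knockout day 30 arrays, against 10.07, 9.99 and 10.07 on the knockout day 15 arrays. In wild type it was 10.26, 10.28 and 10.30 at day 30, against 10.17, 10.17 and 10.13 at day 15. The 2 ages did not overlap in either genotype. The knockout day 15 arrays lay below all the others, and knockout replicate 2 was the lowest of the 12. These means describe the arrays and were not tested.

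**Figure D1:**
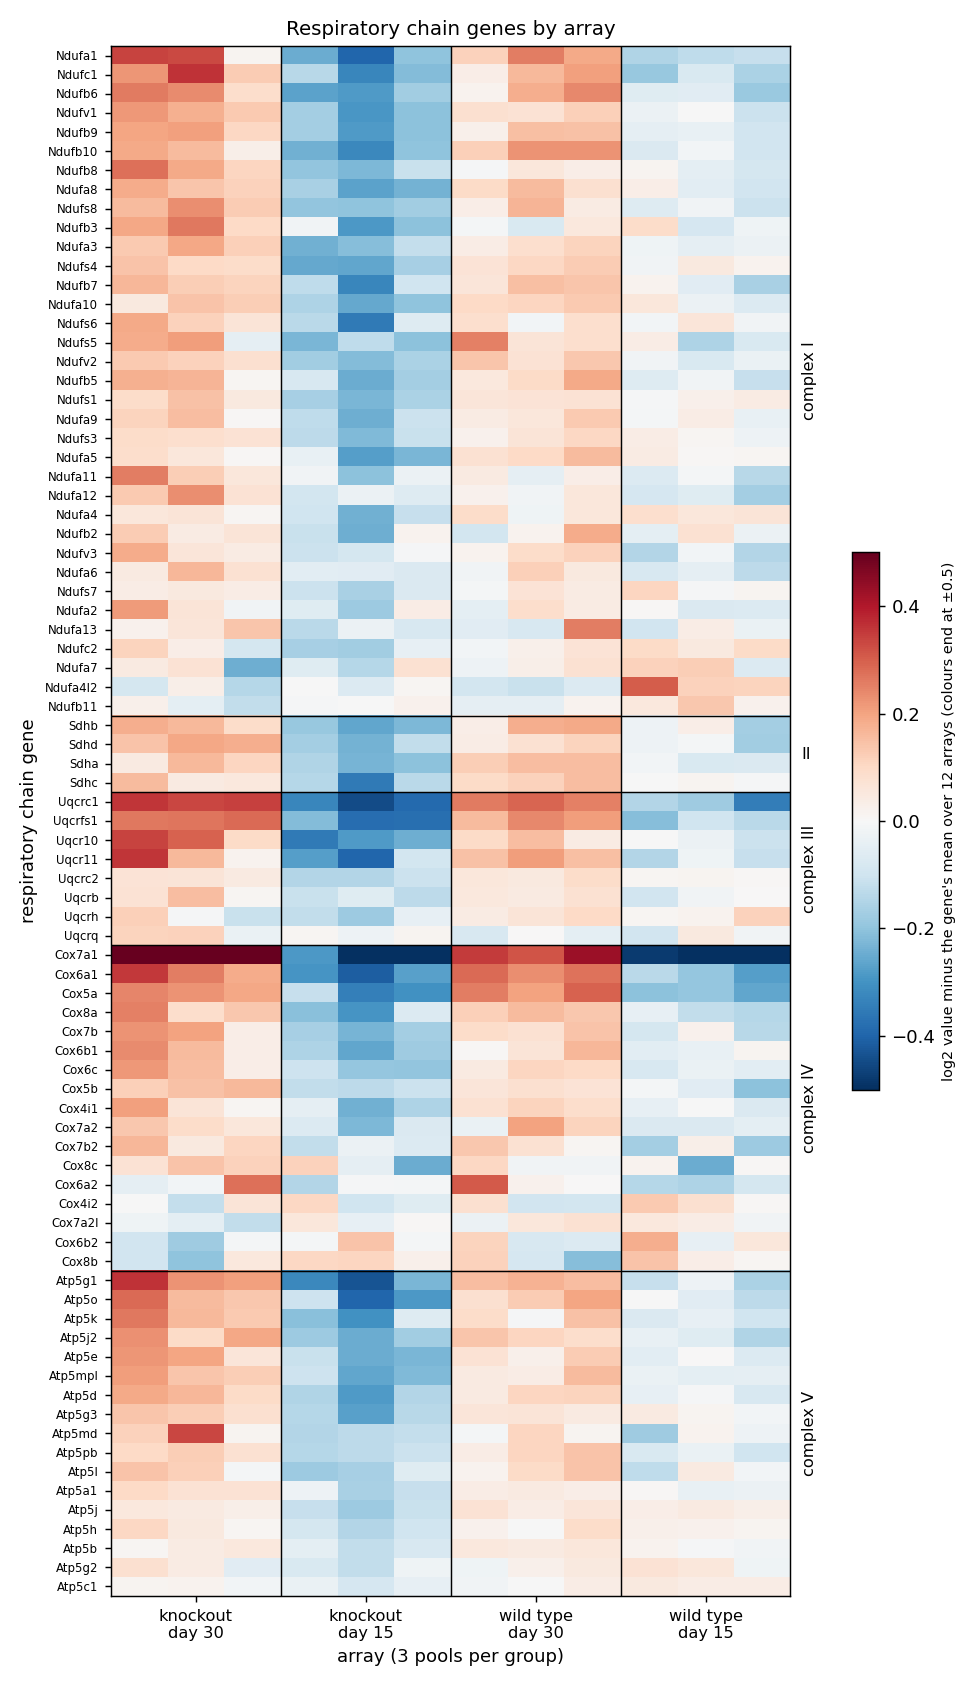
Log2 value of each of the 81 genes on each of the 12 arrays (columns, 3 pools per group), minus that gene's mean over the 12 arrays, in rows grouped by complex I to V and ordered by the knockout age change. Colours end at 0.5 above or below the mean; the knockout day 15 columns are the bluest, with array means of 9.99 to 10.07, against 10.13 to 10.17 in wild type at day 15.

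With age, respiratory chain genes rose widely in the knockout duodenum. Of the 81 genes, 61 were higher at day 30 than at day 15 and 0 were lower (limma adjusted p under 0.05). Over all 19938 genes tested the shares were 13.8% higher and 17.2% lower. The median log2 change over the 81 genes was 0.29, against 0.03 over all genes, and single changes ran from -0.16 to 1.41 with SEs of 0.04 to 0.12. In 67 of the 81 genes all 3 day 30 arrays lay above all 3 day 15 arrays, a pattern found in 20.9% of all genes. The opposite pattern was found in 0 genes (22.0% of all genes). Changes were above 0 in 74 genes (55.7% of all genes) and below 0 in 7 (44.3%). At an unadjusted p under 0.05 there were 66 higher (19.3% of all genes) and 0 lower (20.9%).

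Wild type duodenum changed in the same direction by smaller values. There 20 of the 81 genes rose and 1 fell, where the shares over all genes were 12.3% higher and 17.0% lower. The count of rises depended on the fit, at 46 with arrays centred on their median, 35 among genes above the median gene and 32 with an intensity trend. It was 10 without day 15 replicate 3, and 12 and 11 without day 30 replicate 2 or 3. The median log2 change was 0.12, against 0.02 over all genes, and 68 of the 81 changes were above 0 (54.6% of all genes) and 13 below (45.4%). At an unadjusted p under 0.05, 38 were higher (17.9% of all genes) and 1 was lower (21.2%). All 3 day 30 arrays lay above all 3 day 15 arrays in 50 genes (20.7% of all genes) and below them in 2 (23.1% of all genes).

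The wild type calls lay largely within the knockout calls. A total of 19 genes were called higher in both genotypes, which is 31.1% of the knockout calls and 95.0% of the wild type rises. Since 61 of the 81 genes rose in knockout, a large overlap follows from that count alone, and the overlap was not tested. The only wild type rise outside the 19 was that of Ndufv3, an accessory subunit of complex I (0.18 in wild type, adjusted p = 0.047, against 0.16 in knockout, adjusted p = 0.063). In 76 of 81 genes the signed knockout change was the higher of the pair. In 4 of these, Ndufa4l2, Ndufb11, Cox4i2 and Ndufa7, both changes were below 0 and the wild type one was further from 0. The exceptions to the 76 were Cox6a2, Cox6b2, Cox7a2l, Cox8b and Ndufv3. Across the 81 genes the age changes of the 2 genotypes, which share no arrays, had a Pearson correlation of 0.89 and a Spearman correlation of 0.76. The Pearson value was 0.82 over the 80 genes without Cox7a1, and genes are not independent replicates.

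**Figure D2:**
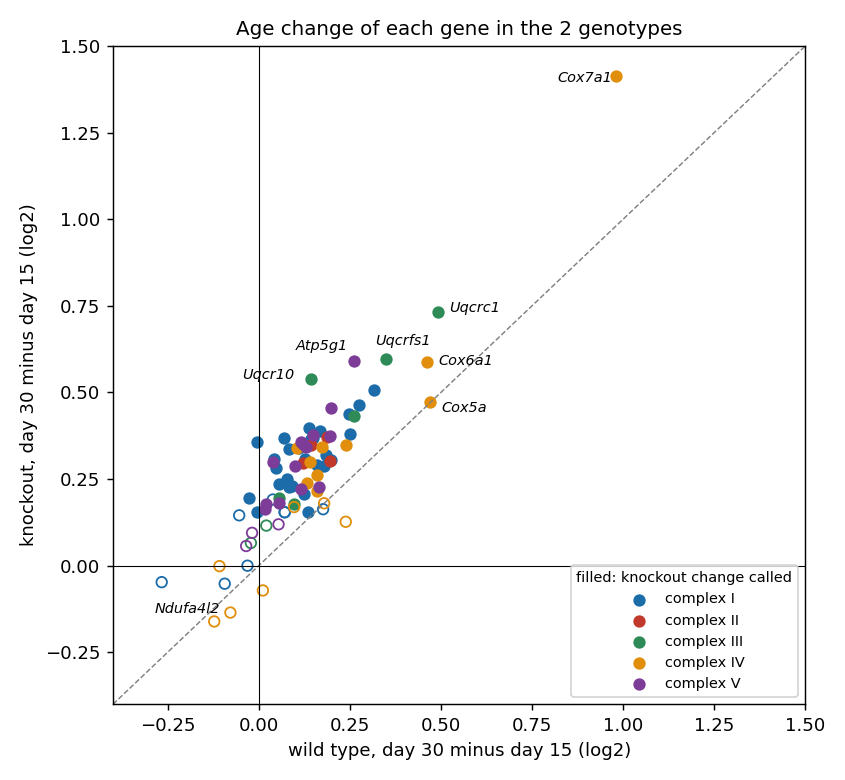
Day 30 minus day 15 on the log2 scale in knockout (vertical axis) against wild type (horizontal axis), 1 point per gene, coloured by complex and filled where the knockout change was called. The dashed line marks equal change; 76 of 81 points lie above it, and Cox7a1 stands apart at 1.41 in knockout and 0.98 in wild type.

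Among cytochrome c oxidase genes, Cox7a1 had the largest age change of the 81 in both genotypes. It encodes the isoform of subunit VIIa known from heart and skeletal muscle, for which Cox7a2 is the counterpart in other tissues. Cox7a1 had log2 values of 10.12, 10.34 and 10.03 in knockout at day 30, against 9.04, 8.49 and 8.71 in knockout at day 15. In wild type it had 9.68, 9.64 and 9.76 at day 30, against 8.85, 8.60 and 8.68 at day 15. The ages did not overlap in either genotype, and at day 30 each knockout array lay above each wild type array. The rise was 2.67-fold in knockout (log2 change 1.41, SE 0.12, limma adjusted p = 2.1e-06) and 1.97-fold in wild type (0.98, SE 0.12, limma adjusted p = 4.6e-05). Cox7a2 rose by 0.22 in knockout (SE 0.07), and its wild type change of 0.16 did not pass (adjusted p = 0.094).

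Markers of striated muscle, the tissue that Cox7a1 is known from, were dim on all arrays. Their mean over 14 genes ran from 6.62 to 6.79 at day 30, against 6.62 to 6.75 at day 15. In knockout 1 of the 14 was called higher and 1 lower, and in wild type 0 were higher and 1 lower. Cox6a2 and Cox8b, the other heart and muscle isoforms of the enzyme, had log2 values of 7.43 to 7.89 and of 6.01 to 6.37 over the 12 arrays. Neither was called in any comparison. Of 9 adipose markers, 3 were lower and 0 higher with age in each genotype.

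The general subunits of complex IV rose in knockout without exception, 9 of 9 (13.8% of all genes), and 4 of 9 rose in wild type (12.3%). Cox6a1, the broadly expressed form of subunit VIa, had 11.39, 11.29 and 11.22 in knockout at day 30, against 10.74, 10.62 and 10.76 at day 15. The wild type arrays had 11.32, 11.27 and 11.30 at day 30, against 10.90, 10.84 and 10.76 at day 15. Its rise was 0.59 in knockout (SE 0.06, limma adjusted p = 1.2e-05) and 0.46 in wild type (SE 0.06, limma adjusted p = 8.8e-05). Cox5a, a subunit on the matrix side, rose by 0.47 in each genotype, and the difference between the 2 rises was 0.00 (SE 0.09). Cox4i1, which regulates the enzyme through ATP binding, rose by 0.24 in knockout, and its wild type change of 0.13 did not pass (adjusted p = 0.15). The other rises in both genotypes were those of Cox5b and Cox8a, and Cox6b1, Cox6c and Cox7b rose in knockout without passing in wild type.

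Apart from Cox7a1, no alternative isoform was called higher with age. There are 8 of them on the array, and the other 7 are Cox4i2 of lung, Cox6a2 and Cox8b of muscle, Cox6b2, Cox7b2 and Cox8c, found in testis, and Ndufa4l2, induced by low oxygen. All 7 had group means under 8, and their knockout changes lay between -0.16 and 0.18. Of the 8 isoforms, 4 had changes above 0 and 4 below in each genotype. At an unadjusted p under 0.05, 2 of the 8 were higher in knockout and 3 in wild type, Cox7a1 included (19.3% and 17.9% of all genes). By the same threshold 0 were lower in knockout and 1 in wild type (20.9% and 21.2% of all genes). Ndufa4l2 was the single wild type fall at the features used, with 6.62, 6.60 and 6.65 at day 30 against 7.02, 6.83 and 6.83 at day 15 (-0.27, SE 0.06, limma adjusted p = 0.0072). In knockout it had 6.63, 6.74 and 6.57 at day 30, against 6.71, 6.65 and 6.73 at day 15, which overlap. Ndufb11, which is not an alternative isoform, had -0.26 in wild type and -0.19 in knockout at another feature, on its own chromosome. Over the 73 genes without these 8 isoforms, 60 rose in knockout (13.8% of all genes) and 19 in wild type (12.3%). Cox7a2l, which links complexes III and IV into supercomplexes, had changes of -0.07 in knockout and 0.01 in wild type and was not called.

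Complex III held the gene with the largest age change after Cox7a1. That gene, Uqcrc1, encodes a core protein of the complex and had 12.41, 12.39 and 12.40 in knockout at day 30, against 11.73, 11.61 and 11.67 at day 15. Wild type values were 12.31, 12.35 and 12.31 at day 30, against 11.91, 11.88 and 11.71 at day 15. The gap between ages was several times the spread within a group, with a rise of 1.66-fold in knockout (log2 change 0.73, SE 0.06, limma adjusted p = 1.4e-06) and of 1.41-fold in wild type (0.49, SE 0.06, limma adjusted p = 4.0e-05). Its partner core protein Uqcrc2 changed less. Uqcrc2 had 12.45, 12.44 and 12.42 in knockout at day 30, against 12.23, 12.23 and 12.27 at day 15, a rise of 0.19. Its wild type change of 0.06 did not pass (adjusted p = 0.40).

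The Rieske iron-sulfur protein Uqcrfs1 also rose in both genotypes, by 0.60 in knockout and 0.35 in wild type. It had 10.20, 10.21 and 10.22 in knockout at day 30, against 9.72, 9.56 and 9.56 at day 15. In wild type the values were 10.10, 10.18 and 10.15 at day 30, against 9.73, 9.84 and 9.81 at day 15. The small subunit Uqcr10 rose in knockout and not in wild type by the test of each. It had 9.74, 9.70 and 9.50 in knockout at day 30, against 9.05, 9.12 and 9.16 at day 15 (0.54, SE 0.07, limma adjusted p = 5.6e-05). On the wild type arrays it had 9.50, 9.56 and 9.45 at day 30, against 9.40, 9.37 and 9.29 at day 15 (0.14, SE 0.07, limma adjusted p = 0.14). In all, 6 of the 8 complex III genes rose in knockout (13.8% of all genes) and 3 in wild type (12.3%). The small subunits Uqcrq and Uqcrh passed in neither.

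In complex I, 27 of 35 genes rose in knockout, and in wild type 7 rose and 1 fell. Over all genes 13.8% rose in knockout, and 12.3% rose and 17.0% fell in wild type. All 6 core catalytic subunits that were classed here (Ndufs1, Ndufs3, Ndufs7, Ndufs8, Ndufv1 and Ndufv2, which carry the flavin and iron-sulfur clusters or bind next to them) rose in knockout, by 0.16 to 0.40, and 1 of them, Ndufv2, rose in wild type. Ndufv1, which binds the flavin that takes electrons from NADH, had 11.11, 11.07 and 11.02 in knockout at day 30, against 10.72, 10.60 and 10.69 at day 15. In wild type it had 10.98, 10.97 and 11.01 at day 30, against 10.86, 10.89 and 10.78 at day 15. Its knockout rise was 0.40, and its wild type change of 0.14 did not pass (adjusted p = 0.074).

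Of the 27 accessory subunits of complex I, 20 rose in knockout (13.8% of all genes) and 6 in wild type (12.3%). The largest of these was Ndufa1, a small membrane subunit, with 9.85, 9.84 and 9.52 in knockout at day 30 against 9.26, 9.11 and 9.31 at day 15. In wild type Ndufa1 had 9.63, 9.77 and 9.70 at day 30, against 9.36, 9.39 and 9.40 at day 15. It rose by 0.51 in knockout and 0.32 in wild type, and no array of 1 age overlapped the other. Ndufc1, Ndufb6, Ndufb10 and Ndufb9 were the next largest that rose in both genotypes, by 0.38 to 0.46 in knockout and 0.17 to 0.27 in wild type.

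Complex II, succinate dehydrogenase, is the only complex that also works in the TCA cycle, and all 4 of its genes rose in knockout (13.8% of all genes). Sdha, the flavoprotein that oxidises succinate, had 12.09, 12.21 and 12.15 in knockout at day 30, against 11.90, 11.81 and 11.84 at day 15 (0.30, limma adjusted p = 0.00057). The wild type arrays had 12.17, 12.20 and 12.20 at day 30, against 12.03, 11.97 and 11.97 at day 15 (0.20, limma adjusted p = 0.011). Sdhb, the iron-sulfur protein, rose by 0.37 in knockout and 0.19 in wild type. The membrane anchors Sdhc and Sdhd rose by 0.30 and 0.35 in knockout and did not pass in wild type, at 0.12 and 0.14.

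In ATP synthase, 14 of 17 genes rose in knockout and 3 in wild type. Over all genes 13.8% rose in knockout and 12.3% in wild type, so the wild type count lies near that share. Atp5b, the catalytic beta subunit, had 13.38, 13.42 and 13.43 in knockout at day 30, against 13.33, 13.25 and 13.29 at day 15. Wild type values were 13.43, 13.42 and 13.43 at day 30, against 13.39, 13.37 and 13.36 at day 15. The arrays of the ages did not overlap, but the changes of 0.12 and 0.05 did not pass (adjusted p = 0.068 and 0.42). Atp5c1, the gamma subunit of the central stalk, did not pass either (0.06 in knockout, -0.03 in wild type), and Atp5a1, the alpha subunit, rose by 0.18 in knockout.

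The 3 genes of the c ring, whose mature proteins are the same and whose import sequences differ, had different calls. Atp5g1 had 10.74, 10.60 and 10.58 in knockout at day 30, against 10.06, 9.95 and 10.15 at day 15. In wild type the values were 10.53, 10.55 and 10.53 at day 30, against 10.26, 10.35 and 10.22 at day 15. Atp5g1 rose by 0.59 in knockout and 0.26 in wild type. Atp5g3 rose by 0.30 in knockout (limma adjusted p = 0.00069), with a wild type change of 0.04 that did not pass. Atp5g2 passed in neither, at 0.09 and -0.02. Differences between the 3 genes were not tested. Of the stalk and membrane subunits, Atp5o, the connection between head and stalk, rose by 0.45 in knockout, and Atp5j2 and Atp5pb rose in both genotypes.

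**Figure D3:**
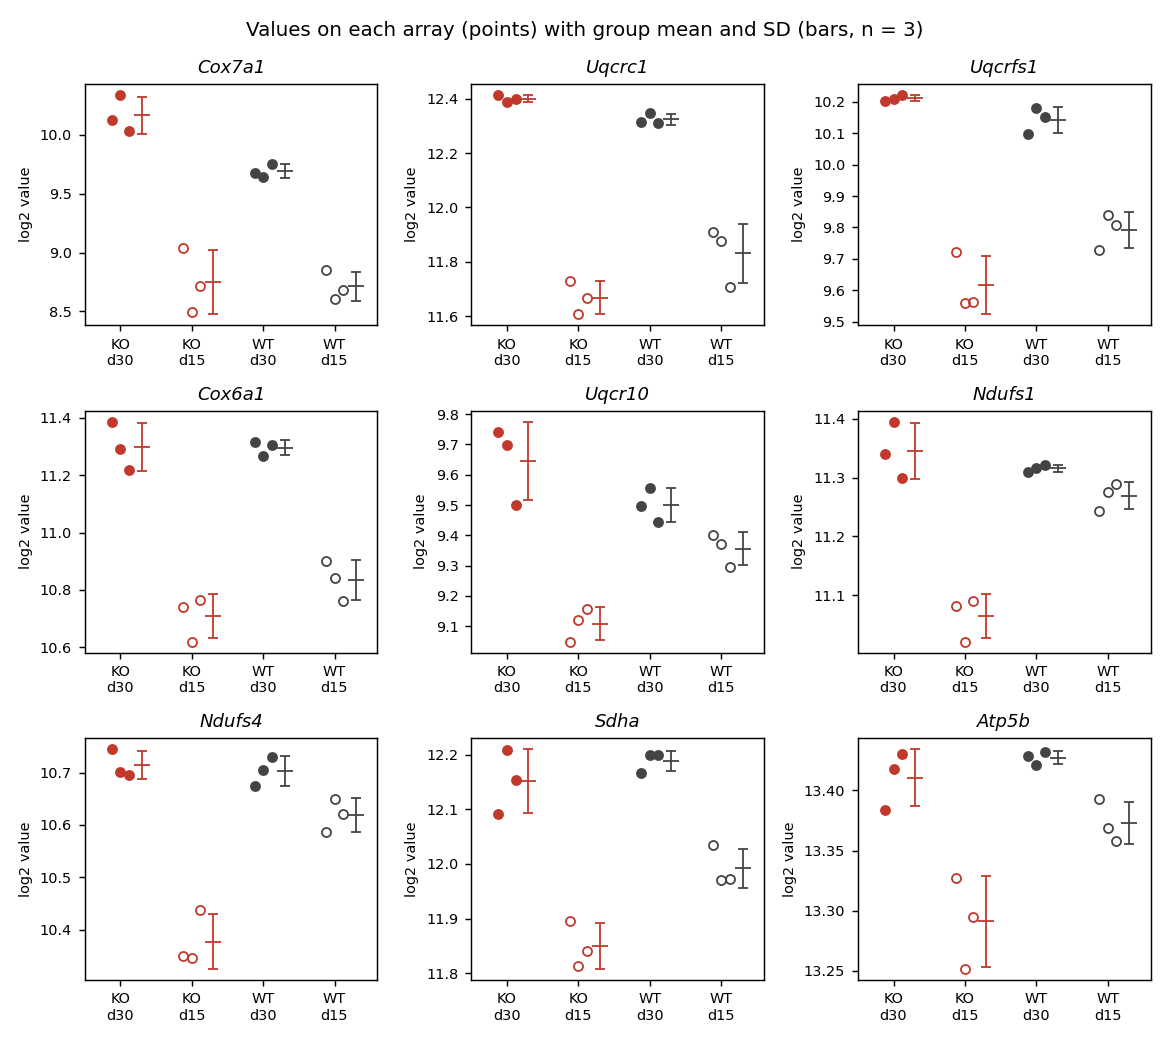
Log2 values of 9 genes on each array (points; filled for day 30, open for day 15), with group mean and SD over 3 arrays, for knockout (KO) and wild type (WT). Each panel has its own axis, which does not start at 0; in all 9 the knockout day 30 points lie above the knockout day 15 points, from 0.12 apart on average in Atp5b to 1.41 in Cox7a1.

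Promoter windows are shown for the pair of genes with the largest knockout rise that had an entry, and for the 3 genes holding the letters of both NRF1 and ETS motifs. NRF1 and the ETS factor GABP are known activators of nuclear respiratory genes. The sequences are the 250 bases before the gene start, 5′ to 3′ on the gene's strand, from RefSeq on build GRCm38.p6, where 66 of the 81 genes had an entry. Capitals mark matches on either strand. The NRF1 motif searched was GCGCA and GCGC with any base between them. The ETS motif searched was CCGGAAG. The third was the CCAAT box, by those letters.
Cox7a1 (chr7:30183921-30184170, plus strand): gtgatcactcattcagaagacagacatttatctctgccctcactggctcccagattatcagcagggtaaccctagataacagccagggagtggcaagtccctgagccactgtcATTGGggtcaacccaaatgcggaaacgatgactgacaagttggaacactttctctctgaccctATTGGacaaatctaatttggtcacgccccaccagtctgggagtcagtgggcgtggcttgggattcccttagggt
Uqcrc1 (chr9:108936398-108936647, plus strand): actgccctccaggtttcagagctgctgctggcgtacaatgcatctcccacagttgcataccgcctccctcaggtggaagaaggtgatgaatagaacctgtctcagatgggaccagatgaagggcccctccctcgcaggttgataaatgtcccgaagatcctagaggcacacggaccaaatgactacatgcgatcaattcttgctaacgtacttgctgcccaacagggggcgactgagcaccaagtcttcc
Cox6a1 (chr5:115348959-115349208, minus strand): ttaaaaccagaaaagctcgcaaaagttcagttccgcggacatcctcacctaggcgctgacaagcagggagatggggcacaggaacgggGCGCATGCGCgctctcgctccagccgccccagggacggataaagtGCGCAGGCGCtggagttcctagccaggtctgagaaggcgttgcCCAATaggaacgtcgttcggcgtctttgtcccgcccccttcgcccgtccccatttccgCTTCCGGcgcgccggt
Sdhd (chr9:50603850-50604099, minus strand): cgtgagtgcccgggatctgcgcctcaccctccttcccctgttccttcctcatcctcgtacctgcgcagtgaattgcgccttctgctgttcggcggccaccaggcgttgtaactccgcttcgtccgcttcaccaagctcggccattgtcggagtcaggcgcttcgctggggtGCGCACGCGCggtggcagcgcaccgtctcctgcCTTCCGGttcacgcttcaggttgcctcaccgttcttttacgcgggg
Atp5h (chr11:115419920-115420169, minus strand): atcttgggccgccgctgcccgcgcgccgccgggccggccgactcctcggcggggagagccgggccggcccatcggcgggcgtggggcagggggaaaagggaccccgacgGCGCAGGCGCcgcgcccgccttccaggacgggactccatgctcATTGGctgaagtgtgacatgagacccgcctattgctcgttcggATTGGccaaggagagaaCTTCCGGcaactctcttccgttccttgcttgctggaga
The Cox7a1 window held 2 CCAAT boxes, and the Uqcrc1 window held none of the 3 motifs. The Cox6a1 window held 2 NRF1 matches, 1 ETS match and 1 CCAAT box.

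Over the 66 windows, 12 held the NRF1 letters (18.2%), against 4.23% of the windows of 27025 genes and 6.43% of 15562 genes tested here. The ETS letters stood in 12 windows as well (18.2%), against 7.83% and 10.72%. CCAAT stood in 29 windows (43.9%), against 37.49% and 38.85%, and TATAAA in 7 (10.6%), against 14.33% and 12.54%. TCAAGGTCA, searched as the motif of estrogen-related receptors (ERR), stood in 1 window (1.5%), against 0.42% and 0.33%. Of the 52 genes with a window that rose in knockout, 10 held NRF1 letters and 11 ETS letters, and of the 14 that were not called, 2 and 1 did. A match is a run of letters and says nothing of binding in these samples. None of the motifs contains another.

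At day 15 the respiratory chain genes of the knockout lay slightly below those of the wild type. The median log2 difference over the 81 genes was -0.12, against -0.01 over all genes. In 72 of 81 genes the difference was below 0, as in 54.1% of all genes. In 42 genes each knockout array lay below each wild type array, a pattern in 12.2% of all genes, and in 0 genes did each lie above (9.09% of all genes). Only 3 genes passed as lower and 0 as higher, where 2.03% and 1.81% of all genes were called. At an unadjusted p under 0.05, 36 genes were lower (8.99% of all genes) and 0 higher (6.22%). This comparison and the knockout age change use the same 3 knockout day 15 arrays.

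The 3 genes called lower in knockout at day 15 were Ndufs4, Ndufs1 and Ndufa4. Ndufs4, an accessory subunit of the NADH-oxidising arm whose loss in mice gives a fatal brain disease, had 10.35, 10.35 and 10.44 in knockout, against 10.59, 10.65 and 10.62 in wild type (-0.24, SE 0.05, limma adjusted p = 0.017). Ndufs1, the largest core subunit of complex I, had 11.08, 11.02 and 11.09 in knockout, against 11.24, 11.28 and 11.29 in wild type (-0.21, SE 0.05, limma adjusted p = 0.036). Ndufa4, first counted in complex I and later found in complex IV, had 12.16, 12.02 and 12.14 in knockout, against 12.34, 12.31 and 12.32 in wild type (-0.22, SE 0.05, limma adjusted p = 0.045). The genotypes did not overlap in any of the 3. None of the 3 calls remained with the day 15 arrays fitted alone, or with the smooth muscle, pancreas acinar or epithelial markers as a covariate. None of the 3 passed without knockout replicate 1 or 2, where the medians over the 81 genes were -0.14 and -0.09, or without wild type replicate 2 or 3, where they were -0.12 and -0.15. Ndufs4 alone of the 3 passed without knockout replicate 3 and without wild type replicate 1.

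Complexes I, II, III and V had much the same day 15 medians, -0.15, -0.16, -0.16 and -0.12, while complex IV had -0.03. The complex IV value mixes general subunits with alternative isoforms, most of which are dim. Its 9 general subunits had a median of -0.11, with all 9 below 0, and the 8 alternative isoforms, Ndufa4l2 included, had 0.02. Ndufa4, counted in complex I by its symbol, was at -0.22. In complex IV, 1 of 17 genes was below wild type at an unadjusted p under 0.05, against 19 of 35 in complex I and 8.99% of all genes. No test was made between complexes. All 6 core catalytic subunits of complex I were lower at an unadjusted p under 0.05 with no overlap of arrays (12.2% of all genes for the latter). Uqcr10 had the lowest single difference (-0.25, adjusted p = 0.069), with 9.05, 9.12 and 9.16 in knockout against 9.40, 9.37 and 9.29 in wild type. Cox7a1 did not share in it, at 0.04 (adjusted p = 0.95).

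By day 30 the genotypes lay close together. The median log2 difference was 0.02, with 61 of 81 above 0 (48.2% of all genes), and limma called 0 genes higher and 0 lower, where 1.04% and 0.943% of all genes were called. At an unadjusted p under 0.05 the counts were 4 higher (5.54% of all genes) and 0 lower (5.68%). Those 4 were Cox7a1, Ndufb3, Ndufb8 and Ndufa12. Cox7a1 was 0.47 higher in knockout (SE 0.12, adjusted p = 0.077), and it passed with 4 other settings of the fit, the only gene that did. In 14 genes each knockout array lay above each wild type array, a pattern in 7.95% of all genes, and in 0 did each lie below (7.49%).

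**Figure D4:**
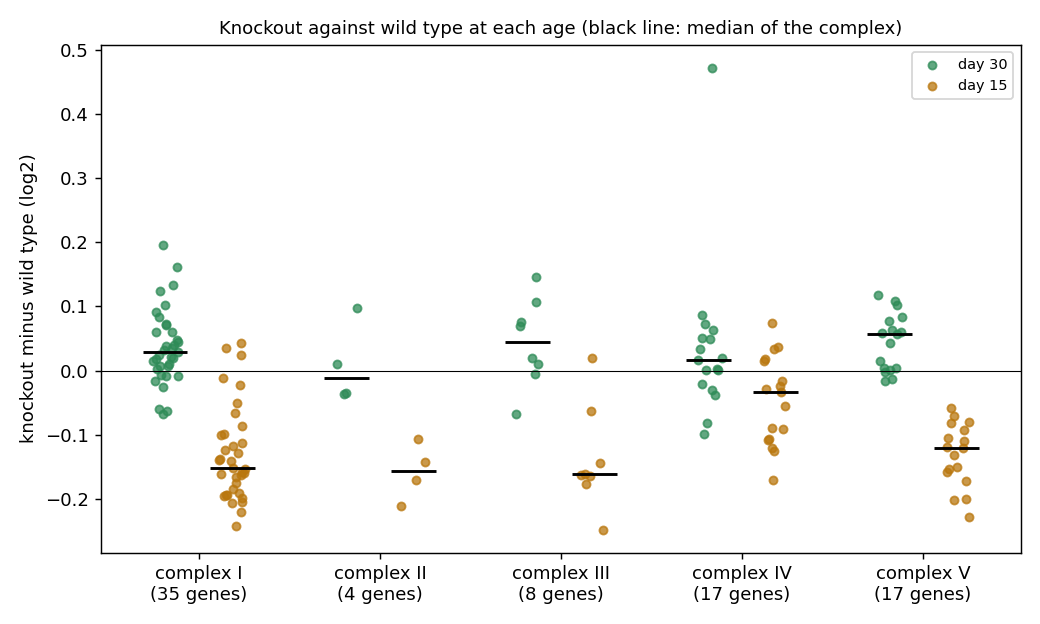
Knockout minus wild type on the log2 scale for each gene (points) at day 30 (green) and day 15 (orange), by complex, with the median of each complex as a black line. At day 15 the medians are -0.15, -0.16, -0.16, -0.03 and -0.12 for complexes I to V, where complex IV includes its alternative isoforms (its 9 general subunits had -0.11); the day 30 medians lie between -0.01 and 0.06, and the single point at 0.47 is Cox7a1.

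The test of whether the age change differed between the genotypes called 0 of 81 genes in either direction (limma adjusted p under 0.05), where 0.231% and 0.226% of all genes were called. The median of the difference was 0.16, against 0.01 over all genes, and 76 of 81 were above 0 (53.0% of all genes) and 5 below (47.0%). At an unadjusted p under 0.05, 32 genes were higher (4.89%) and 0 lower (3.96%). So the higher knockout changes were not shown to differ from the wild type ones gene by gene. The nearest to the threshold was Uqcr10, at 0.39 (SE 0.10, adjusted p = 0.14). In 6 genes (Ndufa3, Ndufb8, Ndufv1, Uqcrfs1, Atp5g1 and Atp5g3) each knockout array lay above each wild type array at day 30 and below each at day 15, a pattern in 0.411% of all genes. Their differences were 0.23 to 0.33, with adjusted p of 0.20 to 0.33.

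Markers of other cells of the segment changed with age as well. Smooth muscle markers fell, 12 of 12 in each genotype, and their list mean ran from 10.02 to 10.19 at day 30, against 10.46 to 10.84 at day 15. Epithelial markers had 6 of 12 higher and 2 lower in knockout, and 8 higher and 2 lower in wild type, with list means of 11.69 to 11.78 at day 30 and 11.61 to 11.71 at day 15. Immune markers rose in 9 of 11 in each genotype. In bulk tissue, fewer cells of a type and less RNA per cell cannot be told apart. Once the smooth muscle mean entered the fit, 0 of the 81 genes were called with age in either genotype, while the medians were 0.43 in knockout and 0.29 in wild type. That fit also took the calls over all genes to 223 in knockout and 37 in wild type, against 6178 and 5849 without it. With the epithelial mean 28 genes rose in knockout and 4 in wild type. The part of these cells in the age changes was not tested, since the smooth muscle values of the 2 ages do not overlap.

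Some marker lists also differed with genotype at day 15. Of all genes, 2.03% were called lower in knockout at that age. Smooth muscle markers were lower in knockout in 3 of 12 cases, with list means of 10.46 to 10.64 in knockout and 10.74 to 10.84 in wild type. Pancreas acinar markers had 0 of 11 called, with means of 12.46 to 13.02 in knockout and 13.12 to 13.21 in wild type. Stomach and Brunner gland markers were lower in 3 of 8, with means of 10.23 to 11.05 in knockout and 10.91 to 11.16 in wild type, which overlap. Their part in the day 15 difference was not tested. Xist, which marks RNA of females in the mixed pools, had 9.26, 10.67 and 9.53 in wild type at day 30, against 11.37, 10.25 and 10.93 at day 15. With Xist as a covariate, 6 of the 81 genes rose in wild type with age.

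Genes that work beside the respiratory chain were counted from lists chosen with earlier results of these data known. The counts stand beside shares over all genes of 13.8% higher and 17.2% lower with age in knockout, and 12.3% higher and 17.0% lower in wild type. Cycs, which encodes the cytochrome c that carries electrons between complexes III and IV, had 12.40, 12.50 and 12.41 in knockout at day 30, against 11.51, 11.76 and 11.61 at day 15. On the wild type arrays it had 12.31, 12.31 and 12.42 at day 30, against 11.92, 11.92 and 11.87 at day 15. Cycs rose by 0.81 in knockout and 0.44 in wild type, and at day 15 it was lower in knockout (-0.28, SE 0.07, limma adjusted p = 0.040). Cyc1, the cytochrome c1 of complex III, rose by 0.53 and 0.31. Of 5 subunits outside the naming rule, 3 rose in knockout, 2 in wild type and none fell. Of the subunits encoded in mitochondrial DNA, 2 were measured and neither was called. ND3 of complex I had changes of -0.09 in knockout and -0.02 in wild type, and COX2 of complex IV of -0.03 and 0.00. Nuclear copies of mitochondrial sequence exist, so these 2 values are uncertain.

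Of the TCA cycle genes, 12 of 17 were higher and 0 lower with age in knockout, and 6 were higher and 1 lower in wild type. Cs, citrate synthase, had 12.73, 12.65 and 12.66 in knockout at day 30, against 11.97, 11.85 and 11.81 at day 15. It rose by 0.80 in knockout and 0.76 in wild type. At day 15, 4 of 17 were lower in knockout, where 2.03% of all genes were called lower. These were Dlat and Pdha1 of pyruvate dehydrogenase, the fumarase Fh1 and the isocitrate dehydrogenase subunit Idh3g, at -0.25, -0.23, -0.27 and -0.20. The difference of the age changes of Dlat was 0.37 (SE 0.08, adjusted p = 0.057). Of the genes that feed electrons to ubiquinone or build it, 9 of 17 rose and 2 fell in knockout, and 6 rose and 3 fell in wild type. Gpd2 of the glycerol phosphate shuttle rose by 0.77 and 0.69, while Etfdh, which takes electrons from fatty acid oxidation, fell by 0.49 in knockout and 0.58 in wild type. Prodh, proline dehydrogenase, rose with age (0.67 and 0.42) and was higher in knockout at both ages, by 0.48 at day 30 and 0.23 at day 15. Coq5 was lower in knockout at day 15 (-0.24, limma adjusted p = 0.040).

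For assembly factors, mitochondrial ribosome genes and import genes, the share higher with age was above the 13.8% of all genes in knockout and near the 12.3% of all genes in wild type. Assembly factors rose in 16 of 42 cases in knockout, with 1 lower, and in 7 of 42 in wild type. The copper chaperone Sco1 of complex IV rose by 0.65 in each genotype. Mitochondrial ribosome genes, which serve the subunits made inside the organelle, rose in 36 of 77 cases in knockout with 1 lower, and in 11 of 77 in wild type with 1 lower. Import and outer membrane genes rose in 14 of 26 cases in knockout with 1 lower, and in 4 with 1 lower in wild type. The fall in both was that of the import receptor Tomm20 (-0.33 and -0.27). None of these 3 lists had a call at day 15, except that the ATP synthase assembly factor Atpaf2 was higher in knockout (0.24).

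Of 16 regulators of mitochondrial biogenesis, 4 rose and 1 fell in knockout, and 3 rose and 2 fell in wild type. The list median was -0.02 in each genotype, and the wild type counts lie near the shares over all genes. Ppargc1a, the coactivator PGC-1 alpha, had 9.77, 9.91 and 9.72 in knockout at day 30, against 8.80, 8.60 and 8.71 at day 15. In wild type it had 9.53, 9.34 and 9.59 at day 30, against 8.88, 8.61 and 8.97 at day 15. Its rise was 1.10 in knockout (SE 0.10, limma adjusted p = 2.7e-06) and 0.66 in wild type (SE 0.10, limma adjusted p = 0.00018). Its relative Ppargc1b rose by 0.39 and 0.24 and was lower in knockout at day 15 (-0.27, limma adjusted p = 0.044). The nuclear receptor Esrra, a partner of both, rose by 0.30 and 0.31, and the mitochondrial DNA polymerase Polg fell by 0.35 and 0.28. The other wild type fall was that of the nuclear receptor Ppara (-0.33, limma adjusted p = 0.0088).

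Glycolysis split, with 9 of 15 genes higher and 4 lower with age in knockout and 9 higher and 3 lower in wild type. Pkm rose by 0.77 and 0.56, and the hexokinase Hk2 by 0.79 and 0.62, while the muscle phosphofructokinase Pfkm fell by 0.52 in knockout and 0.64 in wild type. Against wild type, Aldoc was lower in knockout at day 30 (-0.94, limma adjusted p = 4.3e-05) and at day 15 (-0.38, limma adjusted p = 0.025). Ldhb was lower in knockout at day 15 (-0.26, limma adjusted p = 0.035). Antioxidant and carrier genes also split, with 5 of 12 higher and 2 lower in knockout and 4 higher and 2 lower in wild type. The mitochondrial superoxide dismutase Sod2 rose by 0.45 and 0.26 and was lower in knockout at day 15 (-0.29, limma adjusted p = 0.010). Cat was lower in knockout at day 30 (-0.37, limma adjusted p = 0.014). The ADP/ATP carriers moved apart, since Slc25a5 rose by 0.32 and 0.18 and Slc25a4, the form of heart and muscle, fell by 0.58 and 0.73. No gene of these lists was called in the test of the difference between the age changes.

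**Figure D5:**
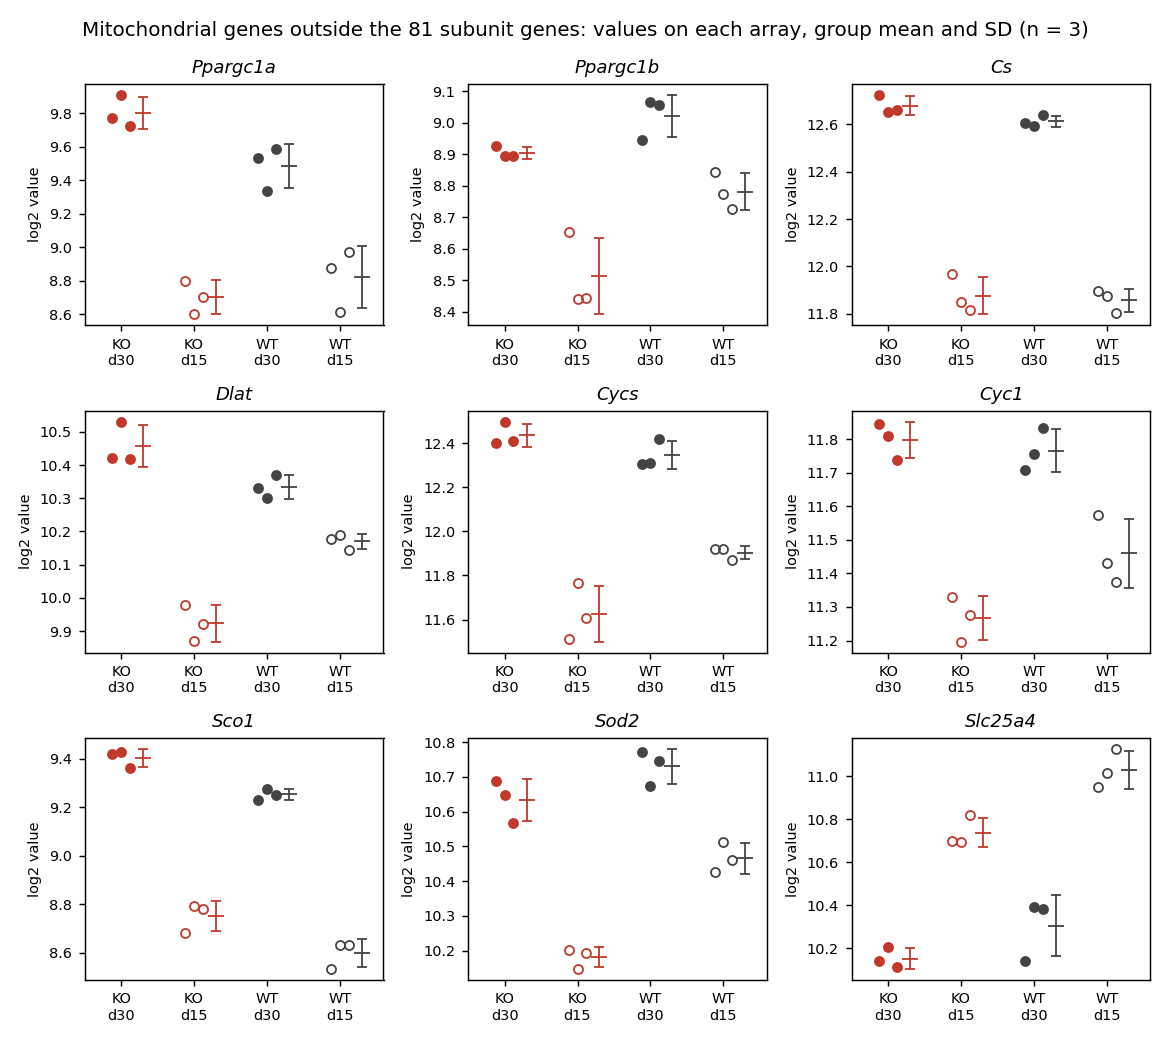
Log2 values of 9 mitochondrial genes outside the 81 on each array (points; filled for day 30, open for day 15), with group mean and SD over 3 arrays, for knockout (KO) and wild type (WT), each panel on its own axis that does not start at 0. In 8 panels the day 30 points lie above the day 15 points of the same genotype, with Ppargc1a rising by 1.10 in knockout and 0.66 in wild type; in the Slc25a4 panel they lie below.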

How the data were processed

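Total RNA of 12 pools was hybridised to Affymetrix mouse gene arrays. The authors deposited log2 expression values per feature, made with RMA in Affymetrix Expression Console 1.1 per the submitters' processing notes. RMA corrects background, normalizes quantiles and summarises probes, so a shift shared by most genes is removed and large folds are compressed. The log base was taken as 2 from the method and from the range of 2.74 to 14.81. No build behind the features is given in the sources used here. Array medians were 7.20 to 7.25, and no array repeated another. The number of arrays limits the precision.

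Of 35557 features, 21789 had 1 gene symbol, 1621 several and 12147 none. Where a gene had several features the one with the highest mean was used, which left 19938 genes. The 81 members had 105 features, and all 81 matched RefSeq of GRCm38.p6. Chromosomes were compared with the genes of the 20 nearest feature numbers, since numbers follow the genome (96.81% of 21695 features lay among genes of their own chromosome).

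With limma 3.58.1 in R 4.3.3, a model of 4 group means was fitted to 12 arrays (8 residual degrees of freedom), with eBayes at default settings. Comparisons were day 30 minus day 15 in each genotype, knockout minus wild type at each age, and the difference of those. P-values were adjusted by Benjamini-Hochberg over all genes within a comparison and called at 0.05. Errors are SDs over 3 arrays or moderated standard errors (SE). The code was tested on simulated data.

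The members, the lists of other genes and the markers were chosen with earlier results of these data known. Any member may be named. Values on every array compared are given for the 6 largest rises and falls called, except Cox5a. For 1 structural subunit per complex and for isoform groups they are given in part, some as ranges. From each list up to 4 genes with the smallest p per comparison may be named. Ndufv1 was also given in full and Xist in wild type, a choice made after their values were seen. Same-numbered arrays of different groups had correlations of deviations of -0.25 to 0.36 (7 of 18 above 0.1), so the numbers were not taken to pair the samples. Alternatives were an intensity trend, robust moderation, a filter on dim genes, the mean of all features, all features tested, centring, array weights, the 6 arrays compared, a replicate block, 4 covariates, leaving out each array and, added after seeing the data, features on the gene's own chromosome. All columns belonged to these samples.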

Additional observations from a re-analysis of the deposited data

How the results depend on the processing

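The rise of the 81 genes with age in knockout was counted at 51 to 67 genes under every alternative without a cell marker covariate, and the median change stayed between 0.25 and 0.34. Leaving out 1 array gave 51 to 60 genes. With the epithelial mean as a covariate it was 28, and with the smooth muscle mean 0, with a median of 0.43 and with Ndufs5 at -0.005 where it was 0.30. Of the 61 calls, 48 held under every setting without a covariate. In wild type 20 rises became 32 with an intensity trend, 35 among genes above the median gene and 46 with arrays centred on their median. They became 4 with the epithelial mean, 6 with Xist and 0 with the smooth muscle mean (median 0.29). Leaving out 1 array gave 10 to 17, with 12 and 11 without day 30 replicate 2 or 3 and 10 without day 15 replicate 3. The single wild type fall became 0 with the filter, the smooth muscle, epithelial or Xist covariate, and 2 with the mean of features or with features on the gene's own chromosome. Of these 21 calls, 9 held under every setting without a covariate.

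The 3 lower calls at day 15 became 15 with an intensity trend, 20 with the filter and 14 with array weights. There was 1 lower call with all features, centring or Xist (Ndufs4) and 1 with the epithelial mean (Ndufa10, not among the 3), and 0 with the 6 arrays alone or the smooth muscle or pancreas mean. Leaving out 1 array gave 0 to 1, and the 1 without knockout replicate 1 was Ndufa5, also not among the 3. At day 30, 1 gene (Cox7a1) was called higher with the trend, the filter, array weights or 6 arrays. In the difference of age changes 1 gene (Uqcr10) was called with array weights and without knockout day 30 replicate 3.

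With the replicate block the counts were 60 higher in knockout, 15 higher and 1 lower in wild type, 1 lower at day 15 and 0 at day 30 and in the difference. The same-number pairs had a median correlation of 0.04, against 0.03 for other pairs. Centring moved the share of higher calls over all genes to 59.1% in knockout with age, against 44.6%, to 60.4% in wild type, against 42.0%, and to 60.0% at day 15, against 47.1%. The cause of these moves was not tested. With 3 pools a group the median SE was 0.06 for a difference between groups and 0.09 for the difference of age changes.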

Other observations

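For 10 of the 81 genes the feature used lay among feature numbers of another chromosome than the gene's, and each had another feature on its own chromosome. These were Atp5g2, Atp5l, Atp5md, Atp5pb, Cox6c, Cox7a2l, Cox7b, Ndufa11, Ndufb11 and Uqcrb. With features on the gene's own chromosome, 60 genes rose in knockout and 21 in wild type, and 2 fell in wild type.

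Atp5pb rose more at its own feature, by 0.42 in knockout and 0.19 in wild type, than at the one used, 0.23 and 0.17. Cox6c had 0.35 and 0.14 at its own feature, against 0.30 and 0.14. Ndufb11 had -0.19 in knockout and -0.26 in wild type at its own feature, against -0.05 and -0.09 at the one used. The 6 features of Atp5l gave knockout changes of 0.22 to 0.27.

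Features naming several genes were left out. Those shared by Gm12338 and Cox7c changed by 0.18 to 0.20 in knockout and 0.11 to 0.12 in wild type. Those shared by Ndufb4b and Ndufb4 changed by 0.24 and 0.28 in knockout and by 0.14 and 0.13 in wild type. The feature shared by Ndufs5 and Ndufs5-ps changed by 0.25 and 0.20.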
